A study of Mus musculus with 8 samples.

Results

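The clustered Hox genes were described in RNA from mouse kidney labelled as inner medullary collecting duct (IMCD), the last part of the tube in which urine is concentrated. The set holds every gene of the deposited expression table whose symbol is Hoxa, Hoxb, Hoxc or Hoxd followed by a number. That rule found 39 of the 77981 genes in the table, with 11 in the Hoxa cluster on chromosome 6, 10 in the Hoxb cluster on chromosome 11, 9 in the Hoxc cluster on chromosome 15 and 9 in the Hoxd cluster on chromosome 2. Antisense and other non-coding transcripts of the clusters were kept apart. The study made an inducible knockout of the vasopressin gene Avp and sequenced 4 libraries with the genotype AVP-flox;Cre and 4 with the genotype AVP-flox. All 8 come from tamoxifen-treated mice, and in both genotypes loxP sites lie in the first intron of Avp and downstream of its 3′ end. The AVP-flox;Cre genotype adds a Cre recombinase whose promoter the sources used here do not give, and no group carries Cre without the floxed gene. The labels give neither age nor strain, and they do not say that replicates are separate animals, so p-values measure the spread between these libraries.

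Hox genes encode homeodomain transcription factors that give cells their position along the head-to-tail axis of the embryo. Genes with the same number in different clusters are paralogs. Their order along each cluster follows the order in which they act, so that low numbers are read towards the head and high numbers towards the tail. Adult tissues keep part of the Hox pattern laid down when they formed. The collecting duct grows from the ureteric bud, and the paralogs Hoxa11, Hoxc11 and Hoxd11 are needed in the mouse for the kidney to form. Hox proteins bind DNA together with homeodomain partners of the PBX and MEIS families, while Polycomb and Trithorax proteins keep Hox clusters silent or active and retinoic acid switches on low-numbered Hox genes in the embryo.

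Values are TPM (transcript abundances), which divide reads by transcript length and scale each library to the same total. Levels may thus be set side by side between genes, but only roughly. Exons shared between genes can move single values, and the annotation behind the table is not given. The number of reads behind them is unknown, and no counting error can be given. Avp ranged over 0 to 0.27 TPM in AVP-flox;Cre libraries and at 0 to 0.24 TPM in AVP-flox. Vasopressin is made in the hypothalamus, so the kidney libraries do not show whether the gene was deleted. The labelled cell type was checked with Aqp2, the water channel of collecting duct principal cells, which stood at 5443 to 7036 TPM in AVP-flox;Cre libraries and at 14915 to 18131 TPM in AVP-flox. That shows collecting duct RNA in every library, but the difference in Aqp2 does not give a difference in the share of principal cells. In AVP-flox;Cre 2 only 33576 genes were listed above 0 TPM, and in the rest of the libraries 50951 to 58232 were. The second principal component of all genes had its extremes at AVP-flox;Cre 2 (high) and AVP-flox;Cre 4 (low). An alternative carried over from earlier work on these data leaves both out together with AVP-flox 2, and calls that it ended are given below as those of the fit to 5 libraries. The male pattern of Xist and Y-linked genes was seen in AVP-flox;Cre 1 and 2 and in AVP-flox 1. With that pattern as a covariate the same 5 Hox genes were called as without it.

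The IMCD libraries expressed Hoxb7 and Hoxb6 most strongly, and genes from Hoxb2 and Hoxd3 up to Hoxa10 and Hoxd10 followed. Hoxb7 had the highest level in all 8 libraries and Hoxb6 the second highest in all 8. Hoxb7, whose promoter is widely used to drive transgenes in the ureteric bud and collecting duct, ran from 146 to 166 TPM in AVP-flox;Cre libraries and from 106 to 131 TPM in AVP-flox. Hoxb6 ran from 75.4 to 94.3 TPM in libraries with Cre and from 89.7 to 99.0 TPM in AVP-flox. Hoxb9, Hoxb2, Hoxa10 and Hoxa7 followed, with means over the 8 libraries of 58.6, 48.7, 46.4 and 45.2 TPM. Hoxd3, Hoxd8, Hoxa9 and Hoxd9 completed the 10 most abundant genes, which together held 81.5% to 86.6% of all Hox TPM in a library. Only Hoxd10, at a mean of 21.3 TPM, also reached 20 TPM.

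**Figure D1:**
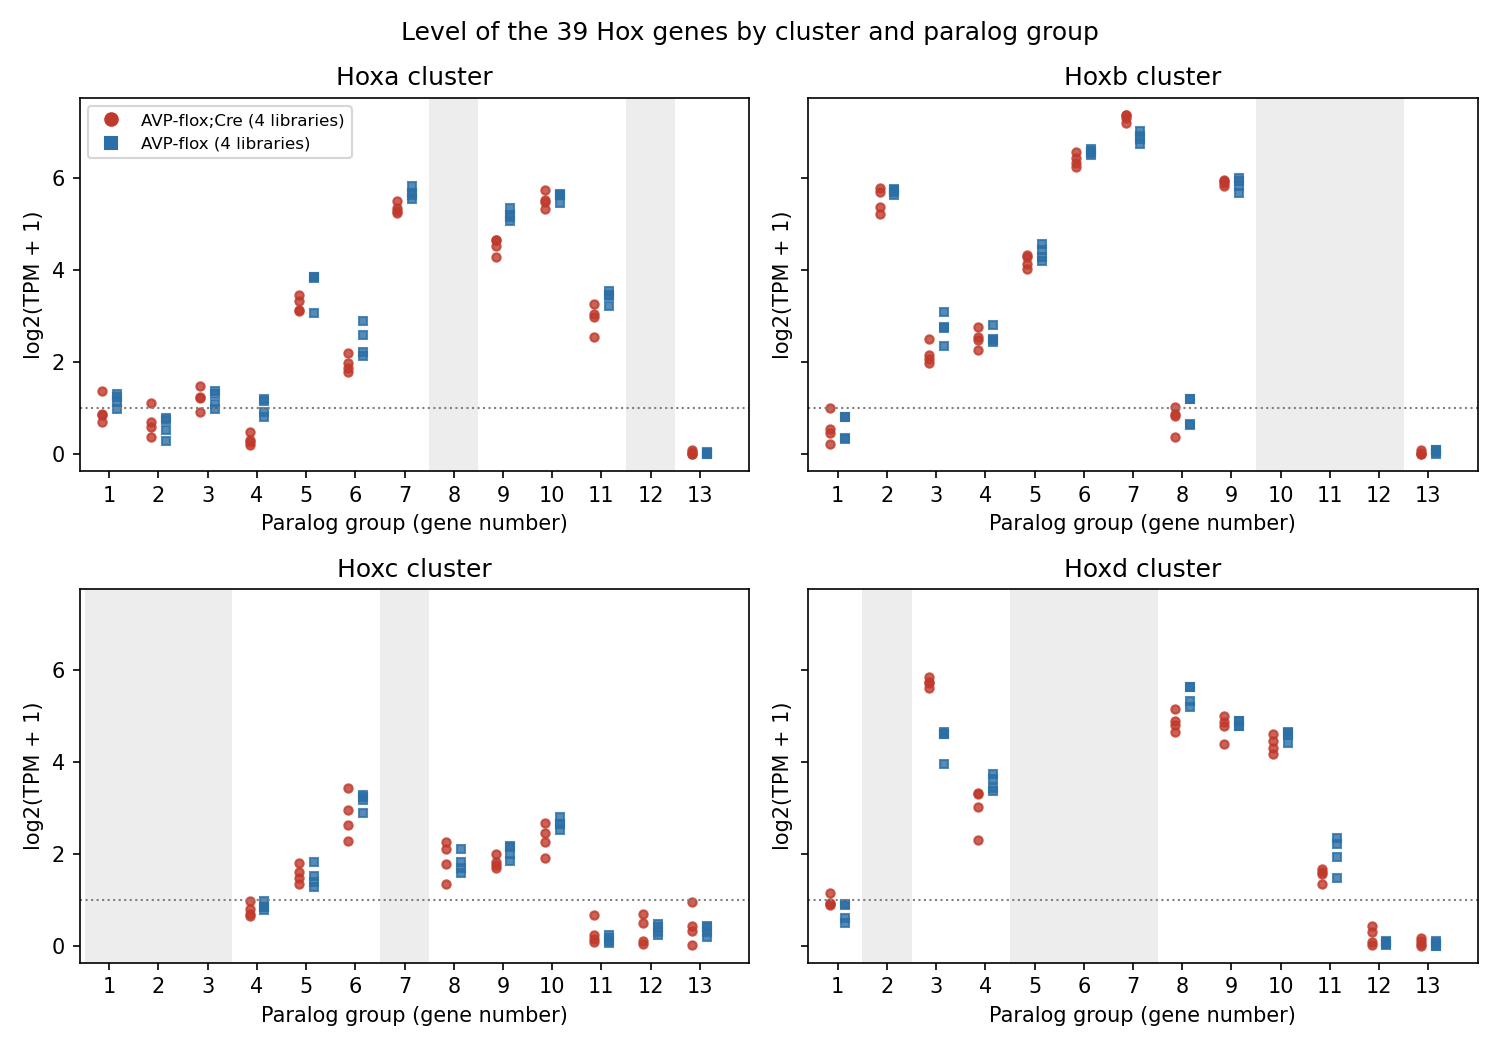
Level of the 39 Hox genes in log2(TPM + 1), with a panel for each cluster and the paralog number on the horizontal axis. Each red circle is a library of AVP-flox;Cre and each blue square a library of AVP-flox (4 each), grey bands are numbers that the cluster lacks, and the dotted line is 1 TPM. Hoxb7 and Hoxb6 are highest in both genotypes, and genes numbered 12 and 13 lie below the line.

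The pattern along the clusters ended sharply at its tail end. All 6 genes of groups 12 and 13 stayed under 1 TPM in every library, and together they summed to 0.06 to 1.89 TPM in AVP-flox;Cre libraries and to 0.45 to 0.87 TPM in AVP-flox. These include Hoxa13 and Hoxd13, which pattern the distal limb and the end of the urinary and genital tracts, and Hoxb13, a gene of prostate and tail development. The drop from group 10 to group 11 was also large. Hoxa10 had 39.3, 44.9, 43.9 and 52.9 TPM in AVP-flox;Cre 1 to 4, against 43.0, 48.9, 49.2 and 49.1 TPM in AVP-flox 1 to 4. Its neighbour Hoxa11 had 8.58, 4.84, 6.96 and 7.35 TPM in libraries with Cre, against 8.31, 9.97, 9.82 and 10.7 TPM in AVP-flox, so that every library held far less Hoxa11 than Hoxa10. Hoxd11 ranged from 1.55 to 2.16 TPM in libraries with Cre and from 1.78 to 4.04 TPM in AVP-flox, and Hoxc11 stayed at 0.58 TPM or less.

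Levels did not run smoothly with position. Hoxb8 lies between Hoxb7 and Hoxb9 in both number and cluster order, and it stood at 0.30 to 1.04 TPM in AVP-flox;Cre libraries and at 0.55 to 1.32 TPM in AVP-flox. Both of its neighbours were at 50.3 TPM or more in all 8 libraries. In group 8 most TPM came from Hoxd8, which had 23.9 to 34.1 TPM in libraries with Cre and 35.6 to 48.2 TPM in AVP-flox. In group 3 the Hoxd member led, with Hoxa3 at 0.90 to 1.82 TPM in libraries with Cre and at 0.97 to 1.59 TPM in AVP-flox. The Hoxc cluster was low throughout, and its highest value for any gene was 9.79 TPM, for Hoxc6 in AVP-flox;Cre 2. In all, 24 of the 39 genes reached 1 TPM in every library and 8 stayed under 1 TPM in every library.

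The ranking of the 39 genes was close to the same in all libraries. Spearman's rho over the 39 genes was 0.969 to 0.995 between libraries of the same group and 0.967 to 0.984 between libraries of different groups. These are descriptions across genes, which are not independent and are measured in shared libraries.

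The design implies 1 comparison, that of the genotype with Cre with the floxed genotype alone, and here it asks whether the Hox pattern differed. Of the 39 genes, 26 averaged 1 TPM or more and were tested, and 13 were under that level. Hoxd3 and Hoxb7 rose in AVP-flox;Cre, Hoxa9, Hoxd8 and Hoxa7 fell, and 21 did not pass the test (limma on log2(TPM + 1), two-sided, Benjamini-Hochberg adjusted p under 0.05 over 19043 genes). The 5 calls are 19.2% of the tested Hox genes, against 27.3% of all tested genes. For rises the background was 13.1% and for falls it was 14.2%. Hox genes were thus called no more often than other genes in these libraries. The 5 called genes are all among the 10 most abundant Hox genes. For those 10 the median standard error (SE) of the log2 fold change was 0.10, against 0.20 for the other 16 tested, so smaller changes could be called in the abundant genes. In bulk RNA, fewer cells of a type and less RNA per cell cannot be told apart.

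Over all 26 tested Hox genes, called or not, the differences leaned to lower values in AVP-flox;Cre. The log2 fold change was negative for 20 of the 26 tested Hox genes (76.9%), against 50.7% of all tested genes, and its median was -0.21 against -0.01. The 21 tested Hox genes that did not pass had a median of -0.20. Over the alternatives that tested the same number of Hox genes, 18 to 23 were negative, and the Hox median ran from -0.25 to -0.16. The groups did not overlap for 6 of the 26 (23.1%, against 29.5% of all tested genes). Those 6 are the 5 called genes and Hoxd4.

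**Figure D2:**
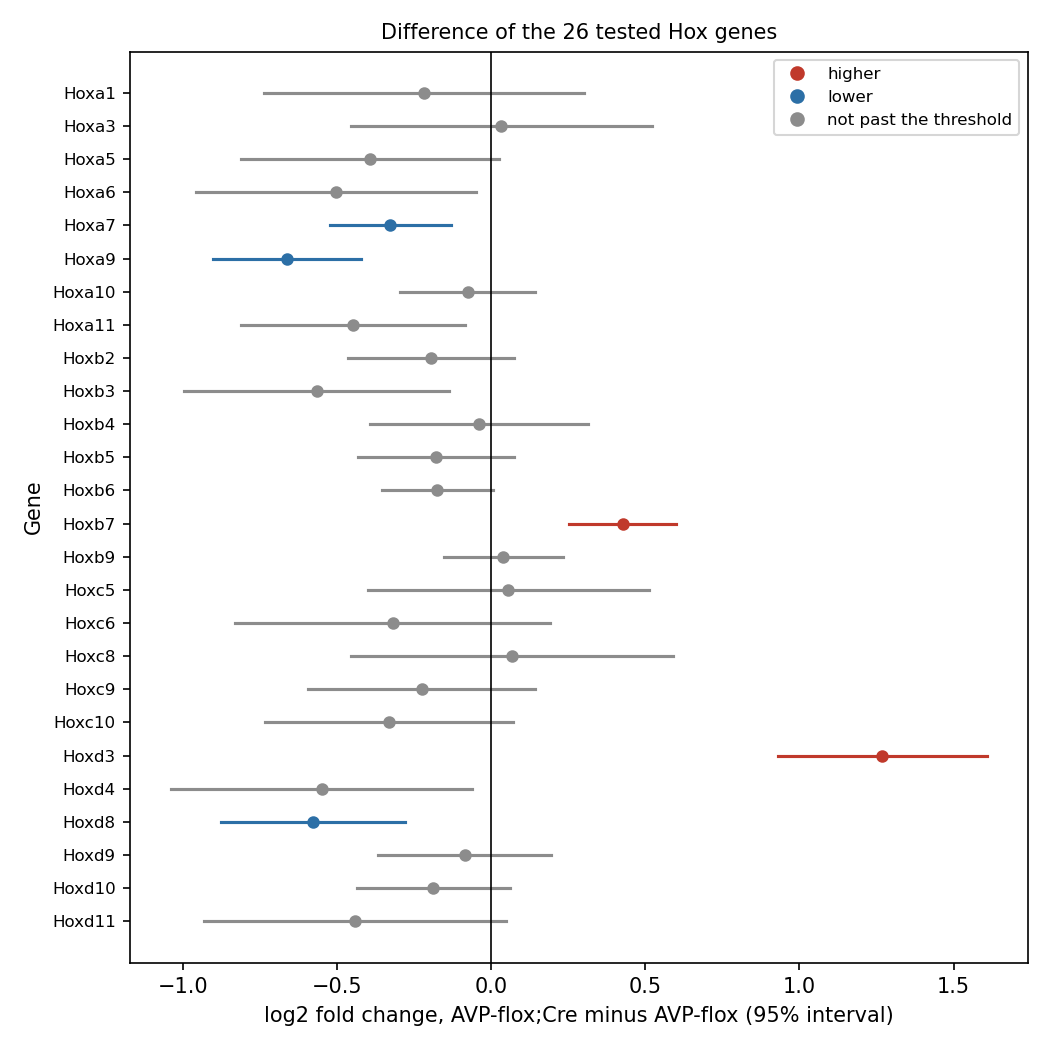
Log2 fold change of the 26 tested Hox genes (points), AVP-flox;Cre minus AVP-flox, with 95% intervals from limma, listed by cluster and number. Red genes rose, blue genes fell and grey genes did not pass the threshold. Hoxd3 at 1.27 and Hoxb7 at 0.43 are the red ones, and 20 of the 26 points lie left of 0.

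Hoxd3, a gene that patterns the neck vertebrae in the mouse, had 51.4, 56.1, 52.2 and 47.7 TPM in AVP-flox;Cre 1 to 4, against 14.4, 23.4, 24.1 and 23.4 TPM in AVP-flox 1 to 4. The lowest AVP-flox;Cre library was thus well above the highest AVP-flox library. AVP-flox;Cre averaged 51.9 ± 3.4 TPM and AVP-flox 21.3 ± 4.6 TPM (SD, n = 4 each), which is 2.43-fold, and the log2 fold change was 1.27 (SE 0.15, 95% interval 0.93 to 1.61, limma adjusted p = 3.40e-04). AVP-flox 1, the only AVP-flox library with the male pattern of Xist and Y-linked genes, was the low library of its group, and without it the log2 fold change was 1.10 (limma adjusted p = 9.55e-05).

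Hoxb7 had 164, 166, 159 and 146 TPM in AVP-flox;Cre 1 to 4, against 106, 131, 120.4 and 115 TPM in AVP-flox 1 to 4. The groups did not overlap, and AVP-flox;Cre averaged 159 ± 9 TPM against 118 ± 10 TPM in AVP-flox (SD, n = 4 each), or 1.35-fold. Its log2 fold change was 0.43 (SE 0.08, limma adjusted p = 0.00327). The call ended with median-of-ratios scaling, at 0.40 and an adjusted p of 0.0559 in limma.

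Hoxa9, which supports blood stem cells and is active in myeloid leukaemia, had 22.1, 18.6, 24.4 and 24.3 TPM in AVP-flox;Cre 1 to 4, against 35.7, 32.6, 40.3 and 34.8 TPM in AVP-flox 1 to 4. All 4 AVP-flox;Cre values were below all 4 AVP-flox values. Its mean was 1.61-fold lower in AVP-flox;Cre, and the log2 fold change was -0.66 (SE 0.11, limma adjusted p = 0.00180).

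Hoxd8, a gene of the middle of the Hoxd cluster, had 34.1, 26.6, 28.6 and 23.9 TPM in AVP-flox;Cre 1 to 4, against 35.6, 39.1, 48.2 and 48.2 TPM in AVP-flox 1 to 4. AVP-flox;Cre 1 and AVP-flox 1 lay close together, and the other libraries were farther apart. The mean was 1.51-fold lower in AVP-flox;Cre (log2 fold change -0.58, SE 0.13, limma adjusted p = 0.0106). In the fit to 5 libraries the log2 fold change was -0.47 and not past the threshold (limma adjusted p = 0.113).

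Hoxa7, the paralog of Hoxb7, had 38.0, 37.1, 44.4 and 40.3 TPM in AVP-flox;Cre 1 to 4, against 50.2, 49.0, 56.2 and 46.2 TPM in AVP-flox 1 to 4. The highest AVP-flox;Cre library was just below the lowest AVP-flox library. The mean was 1.26-fold lower in AVP-flox;Cre (log2 fold change -0.33, SE 0.09, limma adjusted p = 0.0209). This is the least secure of the 5 calls. It ended with no filter (limma adjusted p = 0.0831), without AVP-flox;Cre 1 (0.0527), without AVP-flox;Cre 2 (0.0510), without AVP-flox 3 (0.0628) and in the fit to 5 libraries (0.162). When AVP-flox;Cre 1 alone stood for its genotype and was taken to vary like AVP-flox, the calls of all 5 genes ended.

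**Figure D3:**
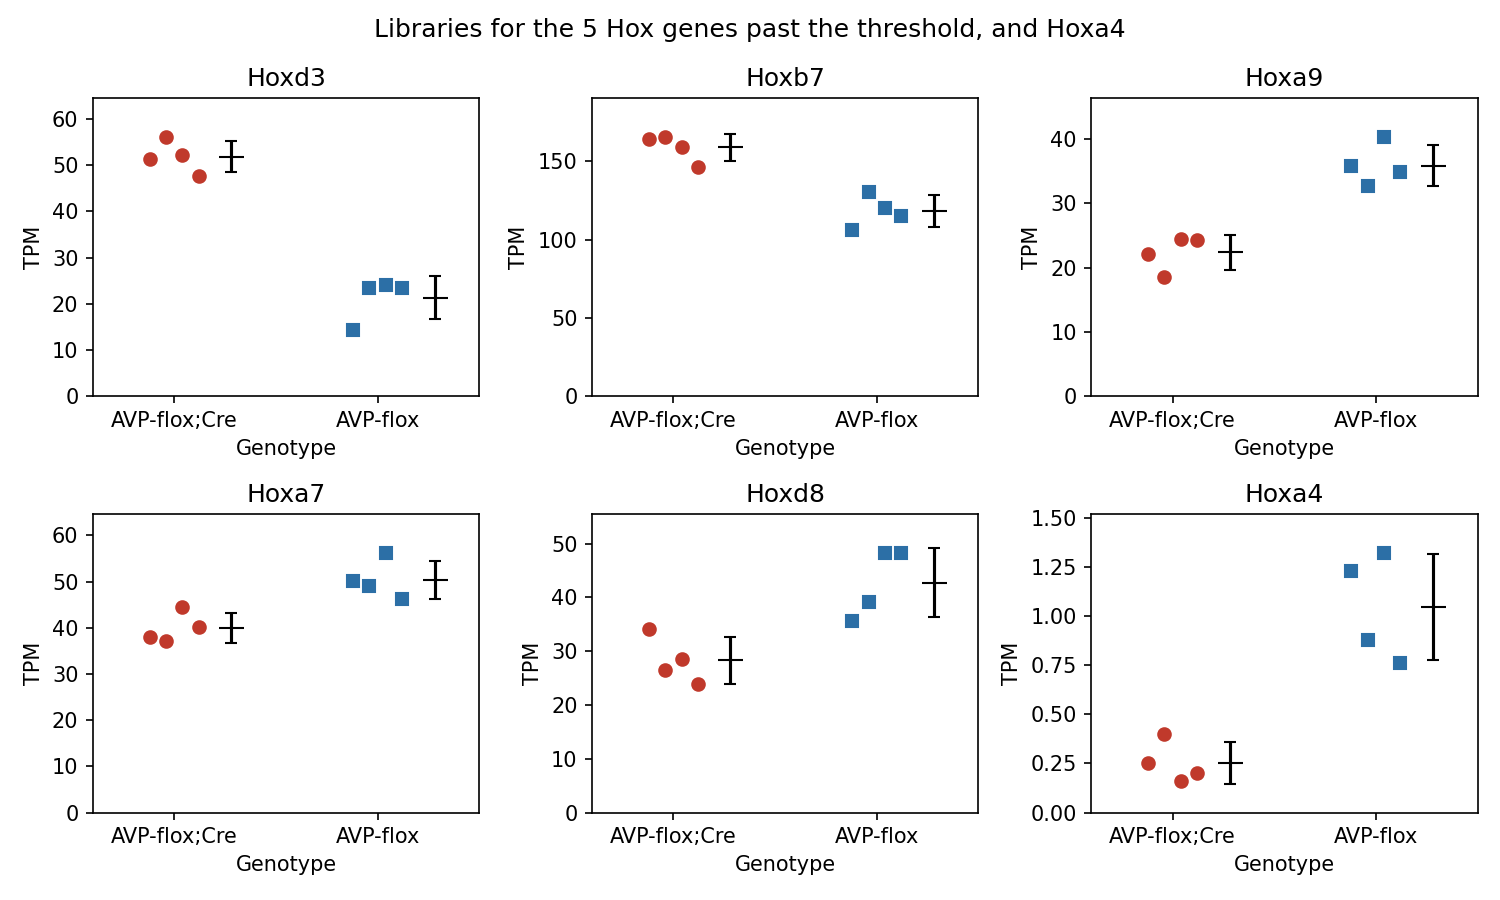
TPM of the 5 called Hox genes and of Hoxa4, which was not tested, in each library, with AVP-flox;Cre (red circles) left of AVP-flox (blue squares). Black marks are group means with SD (n = 4 each), and the groups do not overlap in any panel.

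Among paralogs, those of group 7 moved in opposite directions. There Hoxb7 rose and Hoxa7 fell, and their sum was 199 ± 8 TPM in AVP-flox;Cre libraries and 169 ± 11 TPM in AVP-flox. In group 3 Hoxd3 rose, while Hoxb3 had 3.45, 2.95, 4.68 and 3.23 TPM in libraries with Cre, against 4.15, 7.61, 5.83 and 5.72 TPM in AVP-flox (log2 fold change -0.57, limma adjusted p = 0.0526). The groups overlapped for Hoxb3 through AVP-flox;Cre 3 and AVP-flox 1, and its value passed the test under 6 of 23 alternatives. In group 9 Hoxa9 fell, while its paralog Hoxb9 was at 55.7 to 61.9 TPM in libraries with Cre and at 50.3 to 63.9 TPM in AVP-flox, with a log2 fold change of 0.04 (95% interval -0.15 to 0.23). Hoxd9 was also close to no difference, at -0.09 (95% interval -0.37 to 0.20). For Hoxb9 and Hoxd9 these intervals leave out a fall as large as the -0.66 of Hoxa9.

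The promoters of the called genes are shown because genes of the same cluster moved in opposite directions or did not pass the test. They are 300 bases each (250 before and 50 after the start) from RefSeq on GRCm38.p6, in which 22 of the 39 Hox genes had a window and 4 of the 5 called genes did. Capitals mark a CCAAT box on either strand.
Hoxd3 (chr2:74711743-74712042, plus strand): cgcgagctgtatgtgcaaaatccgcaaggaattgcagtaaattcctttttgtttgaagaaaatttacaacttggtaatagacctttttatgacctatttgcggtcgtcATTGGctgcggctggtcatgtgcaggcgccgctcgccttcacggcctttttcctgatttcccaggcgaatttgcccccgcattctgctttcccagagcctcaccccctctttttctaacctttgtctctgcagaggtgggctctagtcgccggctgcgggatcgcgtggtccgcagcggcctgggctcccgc
Hoxd8 (chr2:74704365-74704664, plus strand): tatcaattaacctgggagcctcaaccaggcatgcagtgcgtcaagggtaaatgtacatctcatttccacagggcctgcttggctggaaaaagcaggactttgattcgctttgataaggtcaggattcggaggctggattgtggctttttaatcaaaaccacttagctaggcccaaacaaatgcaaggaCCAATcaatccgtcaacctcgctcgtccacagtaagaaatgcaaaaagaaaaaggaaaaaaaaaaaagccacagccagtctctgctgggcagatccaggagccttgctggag
Hoxa7 (chr6:52218524-52218823, minus strand): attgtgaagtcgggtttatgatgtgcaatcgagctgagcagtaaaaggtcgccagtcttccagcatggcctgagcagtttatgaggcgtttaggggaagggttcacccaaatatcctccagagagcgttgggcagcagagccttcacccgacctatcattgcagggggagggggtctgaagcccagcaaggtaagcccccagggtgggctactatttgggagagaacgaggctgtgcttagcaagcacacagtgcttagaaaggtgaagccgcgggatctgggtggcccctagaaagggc
Hoxa9 (chr6:52227321-52227620, minus strand): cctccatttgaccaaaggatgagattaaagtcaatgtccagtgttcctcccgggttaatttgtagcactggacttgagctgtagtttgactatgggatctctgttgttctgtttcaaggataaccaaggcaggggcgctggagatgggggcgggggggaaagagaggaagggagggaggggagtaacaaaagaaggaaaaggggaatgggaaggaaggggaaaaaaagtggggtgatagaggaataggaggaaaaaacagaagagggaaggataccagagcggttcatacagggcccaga

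The Hoxd3 window holds 20 CG pairs, against 6 in that of Hoxd8, 9 in that of Hoxa7 and 4 in that of Hoxa9, where the median over 32851 RefSeq promoters is 7. A CCAAT box, searched on both strands, was found in the windows of Hoxd3 and Hoxd8 and in 37.4% of all promoters. TGATNNAT, a site form bound by Hox and PBX proteins together, was in none of the 4 windows, in 4 of the 24 windows of Hox genes and in 8.85% of all promoters. TATAAA was in none of the 4 and in 13.6% of all promoters. The DR5 element, a form of retinoic acid response element with 5 bases between its repeats, was in none of the 4 and in 3 promoters of all. A match is only a match of letters, and its absence here says nothing of sites elsewhere.

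The annotation bears on the value of Hoxd3, whose exons overlap those of other genes. Overlaps given here and below are those of GENCODE M21 (GRCm38). It is not the release behind the deposited values, since only 16641 of the 19043 tested genes had a transcript in it. In M21 Hoxd3 has 4191 exonic bases over 36516 bases of chromosome 2. Of these, 2225 (53.1%) also belong to Gm28230, a gene model on the same strand, and 388 (9.26%) to the neighbour Hoxd4. Reads in these bases were divided by estimate. Gm28230 had 2.64, 1.95, 2.79 and 2.16 TPM in AVP-flox;Cre, against 2.90, 3.34, 3.03 and 4.57 TPM in AVP-flox. Hoxd4 had 7.11, 3.94, 8.89 and 8.91 TPM in libraries with Cre, against 11.3, 9.31, 9.73 and 12.2 TPM in AVP-flox, with a log2 fold change of -0.55 (limma adjusted p = 0.0903). Both were thus below AVP-flox in every AVP-flox;Cre library, opposite to Hoxd3, and Hoxd4 passed the test under 2 of 24 alternatives.

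Summed over Hoxd3, Hoxd4 and Gm28230, the level was 61.1, 62.0, 63.9 and 58.8 TPM in AVP-flox;Cre 1 to 4, against 28.7, 36.1, 36.9 and 40.2 TPM in AVP-flox 1 to 4. The groups of sums did not overlap. AVP-flox;Cre averaged 61.5 ± 2.1 TPM and AVP-flox 35.4 ± 4.9 TPM (SD, n = 4 each), which is 1.73-fold, with a log2 fold change of 0.79 (SE 0.10, limma adjusted p = 5.14e-04). This sum, which leaves out Haglr and Hoxd3os1, was chosen after the values were seen, and the part that the division of shared reads has in the rise of Hoxd3 was not tested. Among the other called genes, Hoxb7 and Hoxd8 share no exonic base with another gene in M21. There Hoxa9 shares 85 bases (1.52%) with the microRNA gene Mir196b, and 586 bases (20.4%) of Hoxa7 lie opposite Hoxaas3. The deposited values also list a transcript antisense to Hoxa9, at 0.36 TPM or less, that is not among these overlaps. Overlaps in the release behind the values were not examined. The sources used here do not say whether counting used strand, and antisense reads cannot be told apart.

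Several posterior and middle genes of the Hoxa cluster were lower without passing the test. Hoxa11 had a log2 fold change of -0.45 (limma adjusted p = 0.0674), Hoxa6 of -0.50 (0.0942) and Hoxa5 of -0.39 (0.151). Hoxa11 passed under 4 of 24 alternatives, which ran from -0.55 to -0.15. Hoxd11, its paralog, was at -0.44 (0.165). Hoxa5, which is needed for lung development in the mouse, had 9.13, 7.83, 9.98 and 7.65 TPM in AVP-flox;Cre, against 7.45, 13.3, 13.5 and 13.5 TPM in AVP-flox, so that the groups overlapped through AVP-flox 1 alone. Without AVP-flox 1 it passed the test.

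Hoxa4 lay under the filter and was not tested, and it is named after its values were seen. It was listed at 0.25, 0.40, 0.16 and 0.20 TPM in AVP-flox;Cre 1 to 4, against 1.23, 0.88, 1.32 and 0.76 TPM in AVP-flox 1 to 4. The groups did not overlap, and the mean was 4.15-fold lower in AVP-flox;Cre. With no filter its log2 fold change was -0.70 on the log2(TPM + 1) scale, which understates changes of low genes, and was not past the threshold (limma adjusted p = 0.0737). The other 12 untested genes overlapped between groups, so 7 of the 39 genes in all had groups that did not overlap.

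Some abundant genes differed little. Hoxb6 averaged 83.7 ± 8.2 TPM in AVP-flox;Cre libraries and 94.4 ± 4.2 TPM in AVP-flox (log2 fold change -0.18, 95% interval -0.36 to 0.0044). Hoxb2, which acts in the hindbrain, had 40.5, 51.1, 54.2 and 36.7 TPM in libraries with Cre, against 53.0, 49.1, 53.8 and 51.2 TPM in AVP-flox, so that AVP-flox;Cre 1 and 4 were low and AVP-flox;Cre 2 and 3 were not (-0.20, 95% interval -0.46 to 0.07). Hoxa10 was at -0.08 (95% interval -0.30 to 0.14). Of the 5 tested Hoxc genes 0 passed in limma and 0 had an unadjusted p under 0.05.

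As a whole the Hox genes summed to overlapping levels in both groups, with a lower Hoxa share in AVP-flox;Cre. Their sum was 660 ± 20 TPM in AVP-flox;Cre libraries and 669 ± 37 TPM in AVP-flox (SD, n = 4 each), and the ranges overlapped (640 to 687 TPM with Cre and 617 to 704 TPM in AVP-flox). The Hoxa sum was 119 to 139 TPM in libraries with Cre, against 152 to 178 TPM in AVP-flox. As a share of all Hox TPM that is 18.1% to 21.7% in libraries with Cre and 24.1% to 25.3% in AVP-flox, with no overlap. Shares of the other clusters overlapped between the groups. The Hoxb share averaged 56.7 ± 2.4% (53.9% to 59.7%) in libraries with Cre and 52.9 ± 1.4% (51.6% to 54.8%) in AVP-flox. The Hoxd share averaged 20.7 ± 1.0% (19.4% to 21.9%) with Cre and 19.2 ± 0.9% (18.4% to 20.3%) in AVP-flox. The Hoxc share averaged 2.93 ± 0.48% with Cre and 3.31 ± 0.41% in AVP-flox. In Hoxb only Hoxb7 was called higher, and in Hoxd only Hoxd3. Median log2 fold changes of their tested genes were -0.18 and -0.32.

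**Figure D4:**
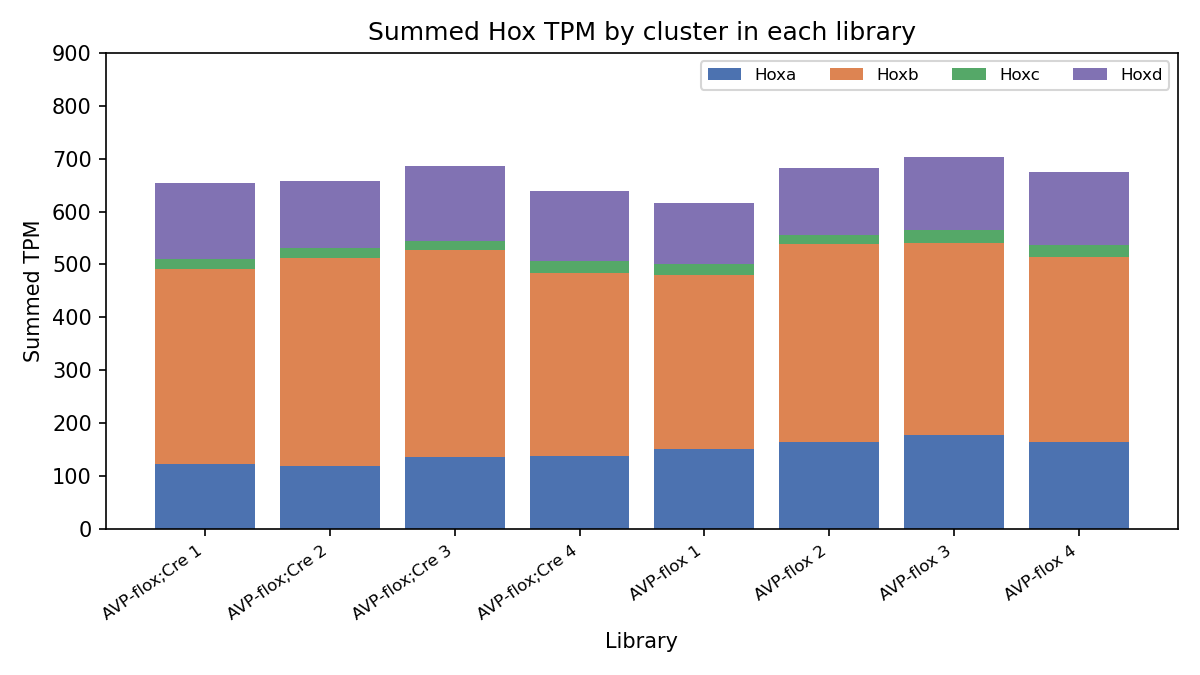
Summed TPM of each Hox cluster in each library, stacked by cluster, with AVP-flox;Cre 1 to 4 left of AVP-flox 1 to 4. The Hoxa part is 119 to 139 TPM in AVP-flox;Cre libraries and 152 to 178 TPM in AVP-flox, while the totals of the groups overlap.

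Hoxb7 and Hoxd3 together held 32.0 ± 1.6% of all Hox TPM in AVP-flox;Cre libraries and 20.8 ± 1.3% in AVP-flox, and Hoxa7, Hoxa9 and Hoxd8 together held 13.7 ± 0.8% with Cre and 19.3 ± 1.2% in AVP-flox. Both sets were formed from the calls in these same libraries, so their shares differ by construction and are no further result. The other 34 genes summed to 344 to 378 TPM in libraries with Cre, against 375 to 414 TPM in AVP-flox. By position, genes of groups 1 to 4 held 16.9% to 19.1% in libraries with Cre and 14.7% to 15.4% in AVP-flox. Group 3, which is mostly Hoxd3, summed to 56.8 ± 3.1 TPM in libraries with Cre and 28.5 ± 6.0 TPM in AVP-flox. The other groups did not show that order, since group 1 summed to 2.44 ± 0.50 TPM with Cre and 2.44 ± 0.32 TPM in AVP-flox, group 2 summed to 46.3 ± 8.6 TPM in libraries with Cre and 52.3 ± 2.1 TPM in AVP-flox and group 4 to 8.75 to 15.6 TPM with Cre and 15.3 to 19.9 TPM in AVP-flox. Groups 5 to 8 held 53.3 ± 2.3% with Cre and 53.1 ± 0.7% in AVP-flox, and groups 9 to 11 held 28.6 ± 2.7% with Cre and 31.8 ± 0.6% in AVP-flox.

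Of 18 named non-coding transcripts of the clusters, 12 were tested, of which Haglr and Hoxa11os rose, Hoxb3os fell and 9 did not pass. Those 9 include the microRNA genes Mir3081, Mir196a-1 and Mir196b, which were at 0 TPM in most libraries. Their SE was 0.78, 0.77 and 0.83, so only large changes in them could be called. Among all tested genes 13.1% were called higher and 14.2% lower. Haglr, an antisense transcript of the Hoxd cluster, had 5.93, 6.94, 5.50 and 4.75 TPM in AVP-flox;Cre, against 1.82, 2.82, 2.30 and 3.48 TPM in AVP-flox (log2 fold change 0.92, SE 0.19, limma adjusted p = 0.00552). In the fit to 5 libraries it was at 0.95 and not past the threshold (limma adjusted p = 0.0526). Hoxd3os1, whose exons lie opposite part of Hoxd3 and Hoxd4, was at 41.3 to 61.5 TPM in libraries with Cre and 56.2 to 67.9 TPM in AVP-flox, and did not pass (-0.23, limma adjusted p = 0.193).

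Hoxa11os, the antisense partner of Hoxa11, had 8.58, 8.66, 5.49 and 7.66 TPM in AVP-flox;Cre, against 4.05, 4.16, 4.91 and 5.34 TPM in AVP-flox (log2 fold change 0.60, limma adjusted p = 0.0222). Its direction is opposite to the uncalled value of Hoxa11, of whose exonic bases 800 (34.98%) lie opposite Hoxa11os. The call ended under 10 of 24 alternatives (limma adjusted p up to 0.229), among them without AVP-flox;Cre 1, AVP-flox;Cre 2, AVP-flox 1 or AVP-flox 2 (0.0547 to 0.0599). Hoxb3os had 8.82, 10.6, 11.3 and 10.6 TPM in libraries with Cre, against 14.8, 12.8, 16.0 and 15.3 TPM in AVP-flox (-0.47, limma adjusted p = 0.0129). It lies opposite 52.9% of the exonic bases of Hoxb3, which was lower without passing. Since antisense reads cannot be told apart here, values of genes on opposite strands may share reads. The part of such sharing in these values and calls was not tested.

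The PBX, MEIS and PREP genes, the TALE class of homeodomain partners of Hox proteins, had 8 members considered here, all tested, of which 2 rose and 6 did not pass. Their median log2 fold change was 0.34, against -0.01 over all tested genes, of which 13.1% were called higher and 14.2% lower. Meis2 had 48.5, 45.8, 44.9 and 48.4 TPM in AVP-flox;Cre, against 31.7, 31.0, 28.7 and 28.9 TPM in AVP-flox (log2 fold change 0.62, SE 0.07, limma adjusted p = 2.86e-04). Every AVP-flox;Cre library was well above every AVP-flox library. Meis3 had 8.97, 13.3, 16.6 and 16.0 TPM in libraries with Cre, against 5.61, 8.12, 6.53 and 6.82 TPM in AVP-flox (0.90, SE 0.19, limma adjusted p = 0.00691), and its call ended in the fit to 5 libraries (0.0734). Summed over the 8 genes, the level was 119 to 142 TPM in libraries with Cre and 106 to 107 TPM in AVP-flox.

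**Figure D5:**
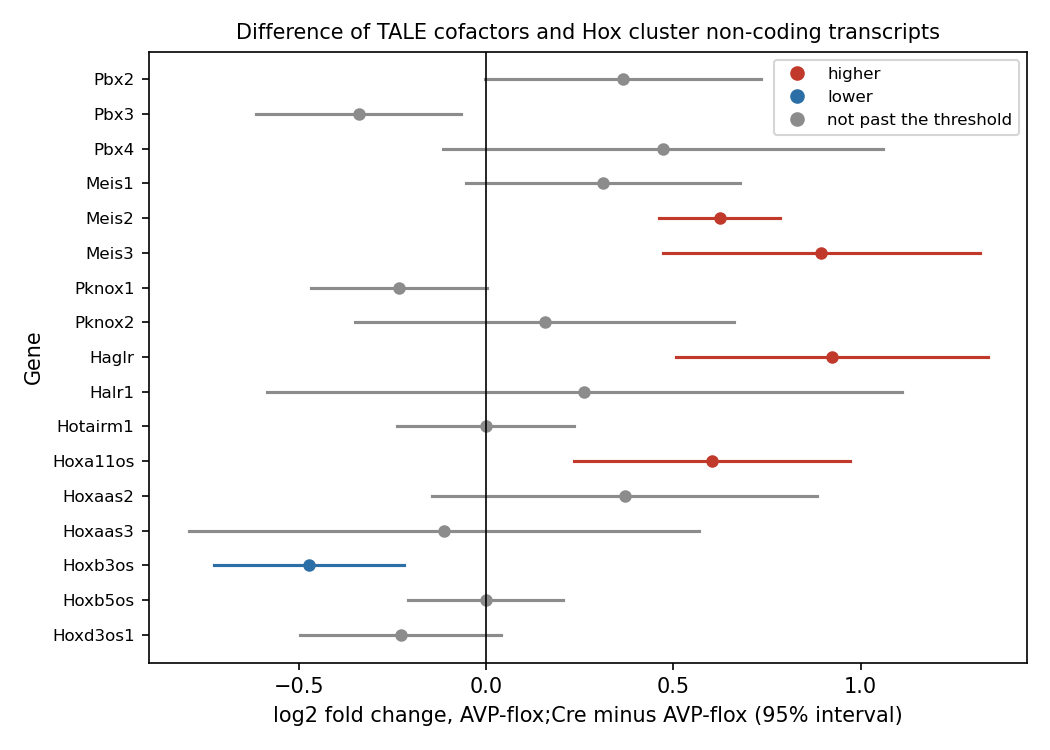
Log2 fold change, AVP-flox;Cre minus AVP-flox, of the tested TALE genes and of tested non-coding transcripts of the Hox clusters other than microRNA genes, with 95% intervals from limma. Meis2, Meis3, Haglr and Hoxa11os are red (higher), Hoxb3os is blue (lower), and grey points did not pass the threshold.

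Genes of the complexes that act on Hox chromatin moved in both directions. Of 27 Polycomb genes 5 rose, 7 fell and 15 did not pass, at a median of -0.08, where 13.1% of all tested genes were called higher and 14.2% lower, at a median of -0.01. Rnf2, which encodes the ubiquitin ligase of Polycomb complex 1, had 72.2, 70.7, 68.3 and 75.2 TPM in AVP-flox;Cre, against 42.3, 37.4, 36.9 and 37.7 TPM in AVP-flox (0.88, SE 0.07, limma adjusted p = 5.03e-05). Its partner Bmi1 had 38.0, 25.5, 33.8 and 31.4 TPM in libraries with Cre, against 67.9, 51.4, 56.2 and 45.5 TPM in AVP-flox (-0.76, SE 0.14, limma adjusted p = 0.00399). Within the same complex Rnf2 was thus higher and Bmi1 lower in all AVP-flox;Cre libraries. Cbx6, a subunit that reads methylated histone H3, rose by 0.43 (limma adjusted p = 0.00379). Phc2 had 59.7 TPM in AVP-flox;Cre 1 but 19.0 to 26.5 TPM in AVP-flox;Cre 2 to 4, against 63.8 to 104 TPM in AVP-flox (-1.55, SE 0.30, limma adjusted p = 0.00470). In the fit to 5 libraries the calls of Bmi1 and Phc2 ended (0.0591 and 0.0918).

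Of Polycomb complex 2, which methylates histone H3, the core genes Eed, Suz12 and Ezh2 are named after their values were seen. Eed fell by 0.39 (limma adjusted p = 0.0245) and Suz12 fell by 0.53 (limma adjusted p = 0.0244), while Ezh2, the methyltransferase, stood at 4.86 to 6.74 TPM in AVP-flox;Cre libraries and 3.40 to 5.95 TPM in AVP-flox (0.24, limma adjusted p = 0.382). The call of Eed ended under 8 of 24 alternatives and that of Suz12 under 5 of 24, single libraries left out among them for both. Of 11 Trithorax and MLL genes, Kdm6b, a demethylase of the mark that complex 2 sets, rose (0.59, limma adjusted p = 0.0385), Psip1 fell (-0.51, limma adjusted p = 0.0104) and 9 did not pass (median 0.10). The shares over all tested genes were the same 13.1% higher and 14.2% lower. The call of Kdm6b ended under 13 of 23 alternatives, and that of Psip1 in the fit to 5 libraries (0.0627).

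Of 14 tested genes of the retinoid pathway considered here 7 rose, 1 fell and 6 did not pass, at a median of 0.51, beside the same 13.1% higher, 14.2% lower and median of -0.01 over all tested genes. Aldh1a1 and Aldh1a3 encode enzymes that make retinoic acid. Aldh1a3 had 1330, 1528, 1196 and 1184 TPM in AVP-flox;Cre, against 328, 662, 451 and 435 TPM in AVP-flox (1.52, limma adjusted p = 3.40e-04). Aldh1a1 had 66.6, 123, 85.8 and 68.3 TPM in libraries with Cre, against 8.73, 16.8, 13.3 and 14.2 TPM in AVP-flox (2.60, limma adjusted p = 6.04e-05). Stra6, which carries retinol into cells, rose by 2.09 (limma adjusted p = 4.71e-04), and Rarg, a receptor of retinoic acid, rose by 0.53 (limma adjusted p = 0.00659), a call that ended in the fit to 5 libraries (0.0557). The other rises, also named after their values were seen, include genes that act against retinoic acid. Cyp26b1, which breaks it down, rose by 1.19 (limma adjusted p = 0.00795). Dhrs3, which turns its precursor back to retinol, rose by 0.48 (limma adjusted p = 0.0385). Aldh1a2, a further enzyme that makes it, rose by 0.76 (limma adjusted p = 0.0158). Rxra, a receptor partner named after its value was seen as the 1 fall, fell by 0.41 (limma adjusted p = 0.0127). Of the 7 tested genes of groups 1 to 4, Hoxd3 rose and 6 did not pass.

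Among 15 kidney development factors 9 were tested, of which Ret fell and 8 did not pass, at a median of -0.24. Over all tested genes 13.1% were called higher and 14.2% lower. Ret, the receptor that guides branching of the ureteric bud, had 0.52, 0.42, 0.22 and 0.63 TPM in AVP-flox;Cre, against 5.58, 6.28, 3.38 and 2.54 TPM in AVP-flox (-1.86, limma adjusted p = 8.93e-04). Of 8 tested genes that flank the Hox clusters, 0 passed in limma and 1 had an unadjusted p under 0.05, with a median of 0.15.

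Several marker lists moved with the genotype, and their part in the Hox values was not tested. Their counts stand beside 13.1% called higher and 14.2% called lower over all tested genes. The 10 principal and inner medullary collecting duct markers (2 higher, 3 lower, median log2 fold change 0.05) summed to 13420 to 15770 TPM in AVP-flox;Cre libraries and 21300 to 25670 TPM in AVP-flox, mostly as Aqp2. The 8 markers of papillary surface and urothelium (6 higher, 1 lower) summed to 5012 to 5762 TPM in libraries with Cre and 1797 to 2820 TPM in AVP-flox, mostly as Psca. The 9 markers of interstitial fibroblasts and pericytes (8 tested, 3 higher) summed to 257 to 324 TPM in libraries with Cre and 127 to 173 TPM in AVP-flox. The 7 endothelial markers (3 higher, 2 lower) summed to 1882 to 1952 TPM in libraries with Cre and 2270 to 2353 TPM in AVP-flox, mostly as Plvap and Emcn. Emcn alone ran from 339 to 401 TPM with Cre and from 654 to 762 TPM in AVP-flox, so the sum does not stand for the whole list. The 7 leukocyte markers (5 tested, 1 higher) summed to 55.4 to 76.3 TPM in libraries with Cre and 35.7 to 48.4 TPM in AVP-flox. The 8 intercalated cell markers (7 tested, 3 higher, median log2 fold change 0.67) summed to 338 to 450 TPM in libraries with Cre and 233 to 357 TPM in AVP-flox. The 8 proximal tubule markers (7 tested, 0 passed in limma, 0 at an unadjusted p under 0.05) summed to 600 to 701 TPM in libraries with Cre and 570 to 671 TPM in AVP-flox, mostly as Aqp1. Every other marker of that list was highest in AVP-flox 1 or AVP-flox 3. Slc34a1 had 5.19 to 12.1 TPM in libraries with Cre, against 41.95, 4.20, 23.2 and 2.61 TPM in AVP-flox 1 to 4. Miox had 13.3 to 16.2 TPM in libraries with Cre, against 59.7, 12.9, 47.2 and 4.91 TPM in AVP-flox 1 to 4. The 7 markers of thick limb and distal tubule (6 tested, 1 higher) summed to 558 to 812 TPM in libraries with Cre. In AVP-flox 1 to 4 they summed to 2277, 361, 1898 and 1959 TPM, so that the groups overlapped through AVP-flox 2 alone. The sums of these last 3 lists overlapped between the groups. No marker of these lists was at 0 in all 8 libraries.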

How the data were processed

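RNA libraries were made from total RNA with the SMART-Seq HT and Nextera XT kits and sequenced in pairs, per the labels' protocols. The submitters' processing notes name STAR and RSEM without versions, and the sources used here give neither the genome build nor the annotation behind the table. The authors deposited TPM per Ensembl gene, with 1 column per library, so depth is unknown and no count test was run. The table's KO columns were taken as the genotype with Cre and its WT columns as the floxed genotype alone, by replicate number. Identifiers sharing a symbol were summed (312 symbols), which left 77981 genes. Overlapping genes share reads that an estimate divides between them, which can move single genes such as Hoxd3.

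In R 4.3.3, limma (version 3.58.1, with statmod 1.5.0) compared AVP-flox;Cre with AVP-flox on log2(TPM + 1) with a mean-variance trend, for 19043 genes averaging 1 TPM or more over 8 libraries. Two-sided p-values were adjusted over those genes by the Benjamini-Hochberg method, with a threshold of 0.05. The script was tested on simulated data. Fold changes are AVP-flox;Cre over or minus AVP-flox, folds are ratios of mean TPM, and intervals are 95% intervals of the log2 fold change.

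The Hox members, the gene lists, the tests and the alternatives were chosen with earlier results of these data known. All 39 Hox genes are accounted for, with values for every called gene and for uncalled genes that the order of levels, paralogs or exon overlap bring in. Of the other lists, up to 4 changed members with the smallest adjusted p are named. Eed, Suz12, Ezh2, Rxra, Cyp26b1, Aldh1a2, Dhrs3, Aqp1, Slc34a1 and Miox are named apart from that rule, and were chosen after their values were seen. The same holds for Psca, Plvap, Emcn, Mir3081, Mir196a-1 and Mir196b. Lists are given by counts and medians, with no set test. Some genes of these lists are not reported here. Among the alternatives were the replicate number as a block, a pseudocount of 0.1 or 5, dropping the filter or raising it to 5 TPM, scaling by median of ratios or by quantiles, and rescaling after removal of mitochondrially encoded genes with the 10 genes of highest level. Others were limma with no trend, robust moderation, sample weights, identifiers kept apart, a correction for GC in the first 300 nt of transcripts, the sex pattern as a covariate, each library left out, and 2 sets of libraries left out. The sum of Hoxd3, Hoxd4 and Gm28230 was added after seeing the data.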

Additional observations from a re-analysis of the deposited data

Results flagged for a closer look

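In 4 of 52 sets of libraries tested (26 Hox genes in 2 groups of 4), the highest or lowest library lay far from the other libraries of its group by Dixon's test, where chance gives about 1 in 20. Hoxd3 was at 14.4 TPM in AVP-flox 1, against 23.4 to 24.1 TPM in the other AVP-flox libraries, and all AVP-flox values are below those of AVP-flox;Cre. Hoxa5 was at 7.45 TPM in AVP-flox 1, against 13.3 to 13.5 TPM in the other AVP-flox libraries. Hoxa10 was at 43.0 TPM in AVP-flox 1, against 48.9 to 49.2 TPM in the other AVP-flox libraries. Hoxb4 was at 5.98 TPM in AVP-flox 4, against 4.42 to 4.66 TPM in the other AVP-flox libraries. The same library, AVP-flox 1, was thus the low value in 3 of these sets. It is the only AVP-flox library with the male pattern of Xist and Y-linked genes. It also had the highest Slc34a1 and Miox of all libraries, at 41.95 and 59.7 TPM. The fit with the male pattern as a covariate kept the 5 Hox calls, but it did not test these single values. The part of either feature in them was not tested.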

How the results depend on the processing

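Called Hox genes were 5 (2 higher, 3 lower), against 5204 calls among all genes, and the counts moved by over 1.5 times as follows. With median-of-ratios scaling 1 was higher and 6 were lower, with quantile normalisation 5 were lower, and with the 5 prime GC correction 8 were called, 6 of them lower. In the fit to 5 libraries (no AVP-flox 2, no AVP-flox;Cre 2 or 4), 3 Hox genes (1 lower) and 2560 of all genes were called. When AVP-flox;Cre 1 alone stood for its genotype, 0 Hox genes (0 higher, 0 lower) and 312 of all genes were called. With no filter 3409 of all genes were called. Leaving out single libraries gave 2 to 5 lower Hox calls, 4 to 7 Hox calls in all and 4006 to 4767 calls among all genes (2 lower without AVP-flox 3, 5 lower without AVP-flox 1, with Hoxa5 and Hoxb3 added).

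Signs turned only for uncalled genes near 0. Hoxa3 was at 0.03 (-0.027 with quantile normalisation, -0.0034 with the GC correction, -0.059 to 0.13 with single libraries left out). Hoxc5 was at 0.06 (-0.027 with quantile normalisation, -0.015 with the GC correction, -0.035 in the fit to 5 libraries, -0.025 to 0.16 with single libraries left out). Hoxb4 was at -0.04 (0.031 with sample weights, 0.0086 with the sex pattern, 0.032 in the fit to 5 libraries, -0.12 to 0.046 with single libraries left out). Hoxd9 was at -0.09 (0.11 in the fit to 5 libraries, 0.15 with the lone AVP-flox;Cre 1, -0.16 to 0.038 with single libraries left out). With single libraries left out, Hoxc8 ran from -0.063 to 0.24 and Hoxb9 from -0.024 to 0.088. Over the named genes, Hox or other, 67 of 1091 values lost a call and 14 gained one, with the direction kept. The cause was not tested.

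Correlations of same-numbered deviations were weak (0.0010 to 0.0950), which cannot show whether replicate numbers pair the samples. For replicate 3 the value of 0.0950 was above the highest with another number (0.0282), and for replicates 1, 2 and 4 it was below. With the replicate block 5 Hox genes and 4431 of all genes were called, and the same 5 Hox genes passed. The depth is unknown, so the 13 untested genes cannot be called absent.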
